A study of Homo sapiens with 6 samples.

Results

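Cancer driver genes are described here by the peaks of RNA immunoprecipitation from SNRPD2-overexpressing cells that fell in them. The set held 46 listed genes of 20037 protein-coding genes: 20 oncogenes, 23 tumour suppressors and 3 genes whose role depends on tissue (NOTCH1, EZH2 and DNMT3A). Membership followed the list and set no threshold on the peaks. A peak belonged to a gene when it was at most 1000 bp wide (a narrow peak) and its summit lay in the RefSeq span of that gene on GRCh38. By this rule 244, 612 and 119 narrow peaks belonged to driver genes in replicates 1, 2 and 3, of 30109, 160931 and 15813 narrow peaks in the lists. Of these 975 peaks, 55 had a summit that also lay in the span of another gene.

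RNA immunoprecipitation followed by sequencing (RIP-seq) was applied to HEK293T, an established human embryonic kidney line. The labels gave 3 samples with the genotype SNRPD2OE, in which SNRPD2, the gene of the SmD2 protein, was overexpressed, and 3 samples labelled Ctrl. One peak list per overexpression sample was analysed. The Ctrl samples were not analysed here, so no value below is a difference between genotypes. Reads from abundant RNA in general cannot be told apart from reads of specifically precipitated RNA. The sources used here do not name the precipitated protein, so the peaks are not shown to be RNA bound by SmD2. The labels name no vector or promoter for the overexpression, and they do not say whether the replicates were separate cultures, so the spread between replicates may be technical.

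Oncogenes promote cell growth when mutated or amplified, and tumour suppressors restrain growth until both copies are lost or silenced. SmD2 is a subunit of the Sm ring around spliceosomal small nuclear RNAs, and it meets pre-mRNA as part of the spliceosome. The stated aim of the series was to examine its relation to pseudouridine, a modified RNA base installed by PUS7 among other enzymes, and to mRNA splicing. Splicing of pre-mRNA matters for many drivers, since a change of splice site can break the reading frame of a suppressor.

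The 3 lists differed in kind. Median peak width over all peaks was 77, 40 and 12210 bp in replicates 1, 2 and 3, and 49284 peaks of replicate 3 were wider than 1000 bp, against 2 and 0 in replicates 1 and 2. The number of reads at a summit was recovered from the deposited fold and p-value. Narrow peaks had a median of 4, 1 and 7 reads, and in replicate 2 a single read was enough for a peak. SNRPD2 itself carried 2 narrow peaks in each list, whose summits reached 78, 80 and 78 reads. No other narrow peak of the same list had more reads, with mitochondrial peaks left out. Of 6 genes known for HEK293T cells (KRT8, KRT18, VIM, NEFL, NEFM and PAX2), 5, 6 and 3 had a narrow peak. Of 6 markers of blood, liver and muscle (PTPRC, CD3E, ALB, APOA1, MYH7 and ACTN2), 1, 5 and 0 did, and none of these peaks reached 10 reads. Over all protein-coding genes, 45.3%, 76.7% and 30.3% had a narrow peak, and 14.2%, 15.9% and 13.0% had one of at least 10 reads. Sets of 6 genes are too small beside these shares to show the identity of the cells.

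Most driver genes carried peaks. Narrow peaks lay in 42, 44 and 29 of the 46 genes in replicates 1, 2 and 3, that is in 91.3%, 95.7% and 63.0%. Over all protein-coding genes the shares were 45.3%, 76.7% and 30.3%. A narrow peak in every list was found for 28 driver genes (60.9%), against 23.9% of protein-coding genes, and no narrow peak in any list for 2 (MYC and MYCN), against 20.9%. Of the rest, 14 had narrow peaks in replicates 1 and 2 only, CTNNB1 in replicates 2 and 3, and EGFR in replicate 2 alone. The mean share over the lists was 83.3% ± 17.7 for driver genes and 50.7% ± 23.7 for other protein-coding genes (SD, n = 3 lists). The difference was 32.6 ± 13.6 percentage points and had the same sign in 3 of 3 lists. An exact two-sided permutation test that flips the sign of each list's difference gave p = 0.25, the smallest p that 3 lists allow.

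Driver genes were longer than other protein-coding genes, with a median span of 54.4 kb against 24.1 kb, and a longer span has more room for a peak. Per length, driver genes held 0.631, 1.58 and 0.308 narrow peaks per 10 kb, against 0.218, 0.932 and 0.119 in other protein-coding genes. The difference was 0.418 ± 0.231 peaks per 10 kb (SD, n = 3 lists; exact sign-flip permutation p = 0.25). It was 0.182 for lists of equal length, 0.0399 for peaks of at least 10 reads and 0.0101 for peaks with a −log10 q of at least 3. These settings keep fewer peaks in both sets of genes. The smaller absolute difference therefore follows by construction and does not measure a change in the ratio of the densities. Under the last 2 settings the lists no longer shared a sign (exact sign-flip permutation p = 0.5 each). Transcript abundance is not measured in these lists.

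Within length classes the driver genes were set beside protein-coding genes of like span. Under 30 kb, 7 of 13 driver genes (53.8%) had a narrow peak in every list, against 15.7% of protein-coding genes. Between 30 and 100 kb it was 9 of 19 (47.4%) against 35.8%, and above 100 kb it was 12 of 14 (85.7%) against 31.6%. The middle class therefore stood nearest to its background. Across the 46 genes, span and number of peaks had a Spearman rho of 0.395, 0.857 and 0.374 in replicates 1, 2 and 3. These are descriptions over genes of the same libraries, and genes are not independent replicates. The peak number followed length most closely in replicate 2, the list with the most single-read peaks.

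**Figure D1:**
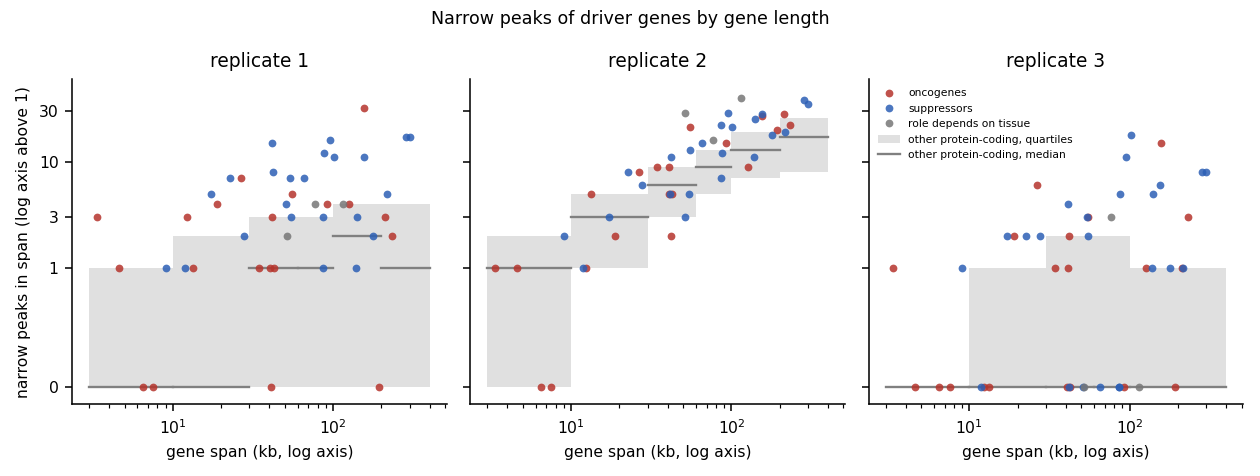
Narrow peaks per driver gene against gene span in kb (log axis) for replicates 1, 2 and 3, with points coloured by role and grey bands for the quartiles of other protein-coding genes of like span. MTOR, with 32, 27 and 15 peaks over 156 kb, lies above the band in each panel, and MYC and MYCN lie at 0.

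Oncogenes and suppressors were then counted apart. A narrow peak lay in 16, 18 and 11 of 20 oncogenes (80%, 90% and 55%) and in 23, 23 and 17 of 23 suppressors (100%, 100% and 73.9%). Every suppressor thus had a peak in replicates 1 and 2. The difference, oncogenes minus suppressors, was −16.3 ± 5.49 percentage points (SD, n = 3 lists; exact two-sided sign-flip permutation p = 0.25, the smallest possible). Oncogenes were the shorter class, with a median span of 40.8 kb against 86.1 kb for suppressors. Per 10 kb, oncogenes had 0.552, 1.40 and 0.265 narrow peaks, against 0.702, 1.49 and 0.353 in suppressors. The mean difference was −0.109 ± 0.0354 peaks per 10 kb (exact sign-flip permutation p = 0.25). The direction did not hold within every length class. Under 30 kb oncogenes had 2.05, 1.94 and 0.970 peaks per 10 kb, against 1.81, 2.26 and 0.792 in suppressors. Between 30 and 100 kb they had 0.432, 1.90 and 0.202, against 1.15, 1.84 and 0.377, and above 100 kb 0.447, 1.15 and 0.218, against 0.443, 1.29 and 0.317. With the 3 genes of tissue-dependent role counted as oncogenes it came to −0.0170 (exact sign-flip permutation p = 1), and with them as suppressors to −0.157. The lower density of oncogenes thus depended on where NOTCH1, EZH2 and DNMT3A, which hold many single-read peaks of replicate 2, were placed.

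The strongest form of agreement between lists was a shared segment, a stretch of at least 20 bp covered by narrow peaks of all 3 lists. Driver genes held 24 such segments in 13 genes (28.3%), against 5.97% of protein-coding genes with at least 1. A segment needs narrow peaks of all 3 lists, and 60.9% of driver genes had a peak in every list, against 23.9% of protein-coding genes. The gap in segments is therefore not separate from the gap in genes with peaks. Of the 46 genes, 6 (13.0%) had 2 or more, against 1.43%. The 13 genes were 4 of 20 oncogenes (AKT1, AKT2, MTOR and NFE2L2) and 9 of 23 suppressors (CDKN2A, CREBBP, EP300, KEAP1, NF1, NF2, SMARCA4, STK11 and TSC2). As shares these were 20% of oncogenes and 39.1% of suppressors, with 7 segments in oncogenes and 17 in suppressors. None lay in NOTCH1, EZH2 or DNMT3A.

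Unlike peak number, the share of driver genes with a shared segment varied little with length. It was 4 of 13 (30.8%) under 30 kb, 5 of 19 (26.3%) between 30 and 100 kb and 4 of 14 (28.6%) above 100 kb. The protein-coding genes of these classes had 4.37%, 8.81% and 6.67%. In the short class the oncogenes had 1 of 8 and the suppressors 3 of 5, in the middle class 2 of 7 and 3 of 10, and in the long class 1 of 5 and 3 of 8. The classes are small.

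The segments rested on few reads. At the summits of the peaks over the 24 segments there were 4 to 23 reads in replicate 1, 5 to 21 in replicate 2 and 4 to 21 in replicate 3, with medians of 9, 8.5 and 7. The deposited −log10 q of these peaks was 0 for 18, 12 and 21 of the 24 segments, which is a q-value of 1 by the caller's own correction. Only 5 segments had at least 10 reads in every list, 1 each in CDKN2A, KEAP1, MTOR, NF2 and SMARCA4. At that depth 10.9% of driver genes kept a segment, against 3.08% of protein-coding genes.

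**Figure D2:**
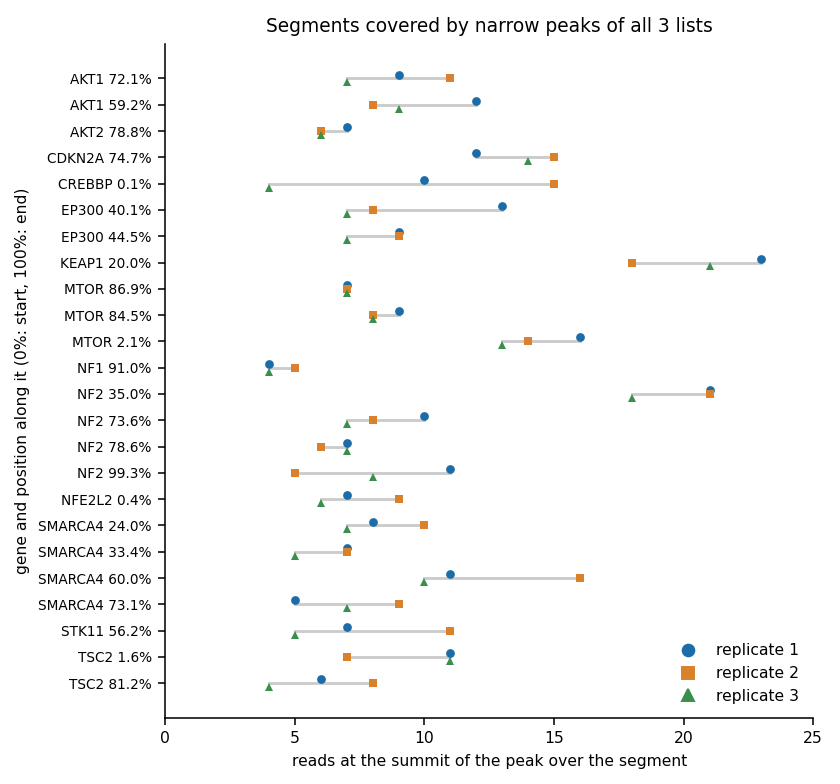
Reads at the summit of the narrow peak over each of the 24 shared segments, 1 row per segment with its gene, and 1 point per list. KEAP1 leads with 23, 18 and 21 reads, and the NF1 segment is among the lowest with 4, 5 and 4.

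Sequence around annotated starts was also examined. Of the segments, 4 lay within 1000 bp after a start, and the share over all protein-coding segments is not given. They lay 134, 88, 124 and 446 bp after the nearest annotated start of CDKN2A, CREBBP, NFE2L2 and TSC2. The windows described next end 50 bases after a start, so they do not reach these segments and say nothing about them. Windows from 250 bases before to 50 bases after an annotated start were taken from RefSeq (GRCh38.p14), 71 windows for 42 driver genes. A narrow peak met 19 of them, 6 in at least 2 lists and 0 in all 3. The share over the windows of all protein-coding genes is not given, so these counts cannot be called high or low. The windows below, 5′ to 3′ on the strand of the gene, are those in which peaks of at least 2 lists covered the same 10 or more bases, which are in capitals. AKT2 (chr19:40285296-40285595, minus strand) had 41 such bases, from peaks of replicates 1 and 3 with 8 and 7 reads and summits 44 and 42 bp after the start. FBXW7 (chr4:152536043-152536342, minus strand) had 12, from peaks of replicates 1 and 2 with 5 reads each and summits 113 and 170 bp after the start. NF2 (chr22:29603383-29603682, plus strand) had 10, from peaks of replicates 1 and 2 with 18 and 14 reads and summits 350 and 133 bp after the start. In each case the covered bases lay at the 3′ end of the window, after the annotated start.
AKT2: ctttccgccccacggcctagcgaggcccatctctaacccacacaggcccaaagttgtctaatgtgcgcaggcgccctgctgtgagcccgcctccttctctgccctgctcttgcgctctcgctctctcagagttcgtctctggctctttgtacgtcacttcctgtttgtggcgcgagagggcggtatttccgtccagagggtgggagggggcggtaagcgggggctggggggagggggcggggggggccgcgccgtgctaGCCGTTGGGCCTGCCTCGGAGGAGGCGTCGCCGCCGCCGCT
FBXW7: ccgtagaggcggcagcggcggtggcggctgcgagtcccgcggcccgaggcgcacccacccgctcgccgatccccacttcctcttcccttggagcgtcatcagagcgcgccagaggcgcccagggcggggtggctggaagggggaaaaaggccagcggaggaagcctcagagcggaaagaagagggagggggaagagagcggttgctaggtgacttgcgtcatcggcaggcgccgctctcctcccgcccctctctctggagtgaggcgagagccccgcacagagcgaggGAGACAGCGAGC
NF2: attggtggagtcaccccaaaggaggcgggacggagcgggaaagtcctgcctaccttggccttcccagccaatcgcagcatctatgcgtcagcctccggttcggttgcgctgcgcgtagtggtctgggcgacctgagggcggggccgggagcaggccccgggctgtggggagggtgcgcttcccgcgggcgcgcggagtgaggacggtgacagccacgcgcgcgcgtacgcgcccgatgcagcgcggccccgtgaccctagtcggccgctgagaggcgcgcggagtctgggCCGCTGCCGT

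Short motifs were counted in the same windows. TNTAA and TNTAG, the DNA letters of the motif at which PUS7 modifies RNA, occurred on the sense strand of 26.8% and 31.0% of the 71 driver windows, against 40.8% and 39.2% of 22199 windows of protein-coding genes. On either strand the shares were 42.3% and 47.9%, against 53.8% and 58.2%. ATTTTTG, the letters of a common form of the Sm site of small nuclear RNAs, was rare. It occurred on the sense strand of 3 driver windows (4.23%) against 1.60%, and on either strand of 7 (9.86%) against 3.02%. No test was made of these shares, and windows of the same gene can overlap and hold the same match. Of the 300 bases of a window, 250 lie before the annotated start, so the shares do not describe the RNA. Matches of different motifs may overlap in a window, and a match is a description of the sequence only.

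Genes of the PI3K and mTOR pathway, which relays growth factor and nutrient signals to protein synthesis, held most of the oncogene segments. Of its 8 listed members, 8, 8 and 6 had a narrow peak in replicates 1, 2 and 3, and 5 had a shared segment, 9 segments in all. The summed density was 1.46, 1.80 and 0.618 peaks per 10 kb, above that of all driver genes in each list. MTOR, the kinase at the core of the pathway, had 32, 27 and 15 narrow peaks. These were the highest counts of any driver gene in replicate 1 and close to the highest in replicate 3, where SMARCA4 had 18. Its best-read segment (chr1:11259307-11259361, 55 bp) lay 3217 bp after the annotated start, with 16, 14 and 13 reads. The other segments (chr1:11130676-11130746 and chr1:11127022-11127063) lay at 84.5% and 86.9% of the gene, with 9, 8 and 8 reads and with 7, 7 and 7 reads. The first of these had a deposited fold of 6.96 in replicate 2. All 3 lists gave nearly the same reads at each MTOR segment. Of the 74 MTOR peaks, 4 also lay in MTOR-AS1, and since the peaks carry no strand they cannot be assigned to either gene.

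AKT1 and AKT2 encode kinases that act downstream of PI3K. AKT1, a gene of 26.4 kb, had 7, 8 and 6 narrow peaks, a mean density of 2.65 per 10 kb. Its segments lay at 59.2% (chr14:104780086-104780177) with 12, 8 and 9 reads, and at 72.1% (chr14:104776661-104776743) with 9, 11 and 7 reads. The highest q-value score of AKT1, a −log10 q of 4.55 with a fold of 7.73 and 15 reads, belonged to a peak of replicate 1 that overlapped no segment. AKT2 had 5, 21 and 3 narrow peaks, among them those at the start printed above, and its segment (chr19:40241957-40242009) had 7, 6 and 6 reads. Peaks of AKT2 were many in replicate 2, but 12 of those 21 held a single read.

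Negative regulators of the pathway were also covered. TSC2, whose protein restrains mTOR as part of the TSC complex, had 15, 5 and 4 narrow peaks. Its segments lay near the start (chr16:2048613-2048683, 663 bp after it) with 11, 7 and 11 reads, and at 81.2% (chr16:2081649-2081741) with 6, 8 and 4 reads. STK11, the kinase LKB1 that activates AMPK, had 7, 8 and 2 narrow peaks over 22.7 kb. Its segment (chr19:1218454-1218583, 130 bp) had 7, 11 and 5 reads, and the replicate 2 peak over it had a fold of 6.31 and a −log10 q of 4.23. TSC1, the partner of TSC2, had 7, 5 and 3 narrow peaks and no shared segment. PIK3CA, the catalytic subunit of PI3K, had 4, 15 and 0 narrow peaks. PIK3R1, its regulatory subunit, had 1, 7 and 0. Neither gene of the PI3K enzyme itself thus had a narrow peak in replicate 3, though 3 and 4 of its wide peaks met PIK3CA and PIK3R1.

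Chromatin regulators were the largest group, with 11 genes, of which 11, 11 and 7 had a narrow peak and 3 a shared segment. SMARCA4, the ATPase BRG1 of the SWI/SNF remodeller, had 11, 21 and 18 narrow peaks. Its 4 segments were spread along the gene, from 24.0% to 73.1% of its length. The third in order (chr19:11021789-11021823, 35 bp) lay 60776 bp after the start and was the best read, with 11, 16 and 10 reads. The segment at 33.4% (chr19:10994859-10994904) had 7, 7 and 5 reads, and in replicate 1 its peak reached a −log10 q of 3.07. The other SWI/SNF subunits listed had no shared segment. SMARCB1, a core subunit, had 4, 3 and 0 narrow peaks with up to 16 and 15 reads. ARID1A, a DNA-binding subunit, had 3, 22 and 0, and PBRM1, a bromodomain subunit, had 3, 25 and 5.

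EP300 and CREBBP encode the paralogous histone acetyltransferases p300 and CBP. EP300 had 12, 12 and 5 narrow peaks, and its segments lay at 40.1% (chr22:41127667-41127694) with 13, 8 and 7 reads and at 44.5% (chr22:41131453-41131559) with 9, 9 and 7 reads. CREBBP had 11, 28 and 6 narrow peaks and a single segment (chr16:3880595-3880656), 88 bp after the annotated start, with 10, 15 and 4 reads. The segments of these related genes thus lay in different parts of their spans, in mid-gene and at the start. KMT2C, a histone methyltransferase with the longest span of the set at 301 kb, had 17, 35 and 8 narrow peaks but no shared segment, and at most 8 reads in each list. KMT2D, its paralog, had 8, 11 and 0. BAP1, a nuclear deubiquitinase, had 1, 2 and 1.

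The genes of receptor and RAS signalling carried peaks in 7, 8 and 5 of 8 members, with segments in the suppressors NF1 and NF2 only. NF2, which encodes merlin, a membrane-linked inhibitor of growth, had 16, 29 and 11 narrow peaks over 95.0 kb. It had 4 segments. The first (chr22:29636774-29636824), 33243 bp after the start, had 21, 21 and 18 reads but folds of only 2.26, 2.01 and 2.78. Those in the middle (chr22:29673436-29673486 and chr22:29678202-29678343) lay at 73.6% and 78.6% of the gene, with 10, 8 and 7 reads and with 7, 6 and 7 reads. The last (chr22:29697933-29698000) lay 634 bp before the annotated end, with 11, 5 and 8 reads and folds of 5.46, 2.93 and 2.89. Folds compare peaks within a list only, because 1 read counts for a different height in each. NF1, which encodes neurofibromin, an inhibitor of RAS, had 17, 38 and 8 narrow peaks over 283 kb, and its segment (chr17:31352296-31352365) had 4, 5 and 4 reads.

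The oncogenes of this group had no shared segment. HRAS, a small GTPase gene of 3.335 kb, had 3, 1 and 1 narrow peaks with up to 17, 13 and 14 reads. By length it had the highest mean density of the set. All 5 HRAS peaks also lay in LRRC56, a gene that overlaps it, so they cannot be assigned to HRAS. NRAS, another RAS gene, had 3, 1 and 0 narrow peaks, with up to 20 and 10 reads in the lists that had them. EGFR, a receptor tyrosine kinase, had 0, 20 and 0 narrow peaks, and 18 of the 20 held a single read. It was the only driver gene with narrow peaks in a single list, and 8 wide peaks of replicate 3 met its span. ERBB2, a receptor of the EGFR family, had 1, 9 and 0 narrow peaks. MET, the receptor of hepatocyte growth factor, had 4, 9 and 1. BRAF, the kinase downstream of RAS, had 3, 28 and 1, and its strongest peak, in replicate 2, had a fold of 6.98 with 9 reads.

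**Figure D3:**
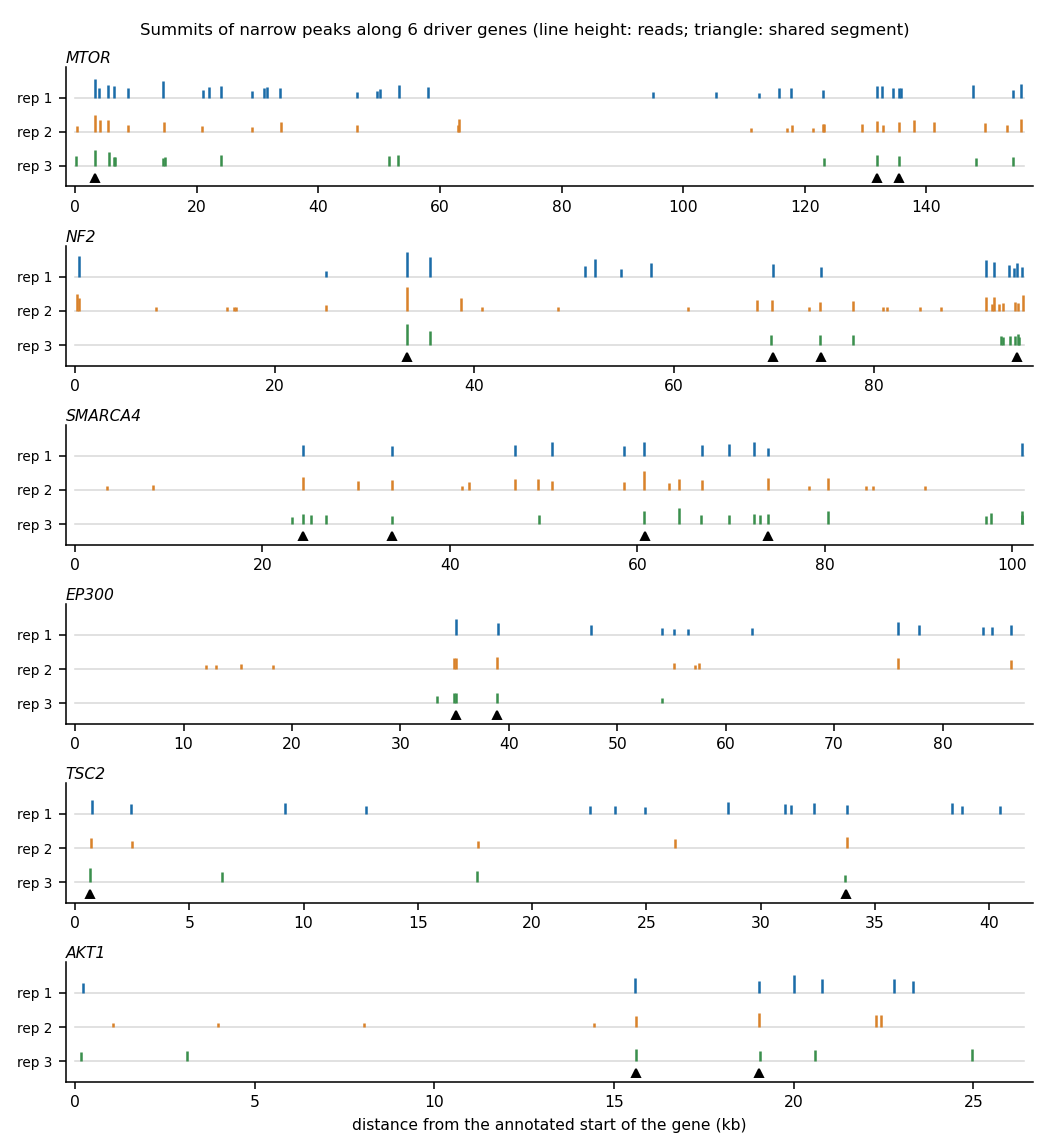
Summits of narrow peaks along MTOR, NF2, SMARCA4, EP300, TSC2 and AKT1, in kb from the annotated start, with 1 row of vertical lines per list, line height for reads, and triangles at shared segments. NF2 has 4 segments, the last 634 bp before its end, and MTOR has 1 near the start and the others at 84.5% and 86.9%.

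Cell cycle genes and MYC genes had the fewest peaks per length of the 6 groups in replicate 1, at 0.217 per 10 kb, with 1.07 and 0.145 in replicates 2 and 3. MYC and MYCN, transcription factors that drive growth, had no narrow peak in any list and no wide peak of replicate 3 over their spans. Their spans are short, 7.52 and 6.46 kb. CDKN2A, which encodes the inhibitors p16 and p14ARF, had 2, 6 and 2 narrow peaks. It was the gene of the group with a shared segment (chr9:21974668-21974779, 112 bp), with 12, 15 and 14 reads. This segment lay 134 bp after one of the annotated starts of the gene. CDK4, the cyclin D kinase, had 1, 1 and 0 narrow peaks with 32 and 27 reads, the most at any driver summit of replicate 1. Both CDK4 peaks also lay in the overlapping gene TSPAN31.

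MDM2, the ligase that degrades p53, had 1, 5 and 0 narrow peaks with up to 21 and 17 reads in replicates 1 and 2, and 4 of the 6 also lay in CPM. MDM4, its partner, had 3, 2 and 2. CCND1, a D-type cyclin, had 1, 5 and 0 with at most 3 reads. CDK6, a kinase related to CDK4, had 2, 22 and 3. RB1, which encodes the retinoblastoma protein that these kinases inactivate, had 2, 18 and 1. Replicate 2 alone thus gave most of the peaks of CDK6 and RB1.

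The 6 genes of WNT, Notch and TGF-beta signalling had no shared segment, though 5, 6 and 4 of them had a narrow peak. CTNNB1, which encodes beta-catenin, had 0, 5 and 1 narrow peaks with 31 reads in replicate 2 and 21 in replicate 3, the most at any driver summit of replicate 2. It was the only driver gene with narrow peaks in replicates 2 and 3 and none in replicate 1. APC, a scaffold of the complex that degrades beta-catenin, had 1, 11 and 1. AXIN1, another scaffold of that complex, had 7, 15 and 0. SMAD4, a transcription factor of TGF-beta signalling, had 3, 13 and 2, and FBXW7, a ligase subunit that targets MYC and Notch, had 5, 19 and 1. NOTCH1, a receptor, had 2, 29 and 0, and 25 of the 29 held a single read.

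In the group of oxygen, redox and metabolism, KEAP1 and NFE2L2 form a regulator and target pair: the KEAP1 protein marks NRF2, the product of NFE2L2, for destruction. KEAP1 had 5, 3 and 2 narrow peaks, and its segment (chr19:10499884-10499924, 41 bp) had 23, 18 and 21 reads, with folds of 4.59, 2.96 and 3.16. These were the highest reads of any segment in replicates 1 and 3. NFE2L2 had 1, 9 and 1 narrow peaks, and its segment (chr2:177264569-177264638) lay 124 bp after the annotated start with 7, 9 and 6 reads. VHL, which directs the hypoxia factors to degradation, had 1, 1 and 0 narrow peaks with 20 and 19 reads, and IDH1, a metabolic enzyme, had 4, 2 and 2. The remaining genes of tissue-dependent role were chromatin genes. EZH2, the Polycomb methyltransferase, had 4, 16 and 3 narrow peaks, and DNMT3A, a DNA methyltransferase, had 4, 40 and 0, of which 31 in replicate 2 held a single read.

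**Figure D4:**
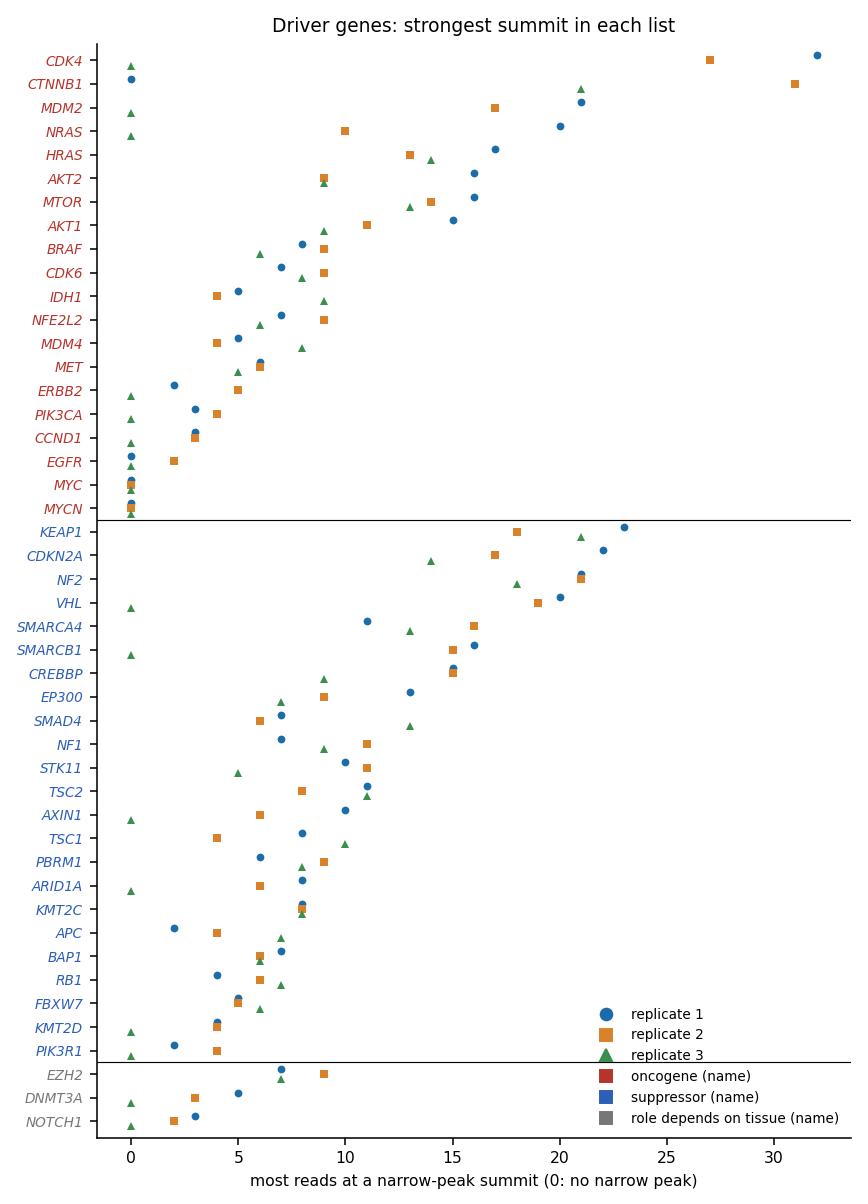
The most reads at a narrow peak summit in each driver gene, 1 point per list, with gene names coloured by role. CDK4 (32 and 27 reads, none in replicate 3) and CTNNB1 (31 and 21, none in replicate 1) hold the extremes without agreement of all lists, while KEAP1, NF2 and MTOR are high in each.

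Other genes of the same pathways gave shares close to those of the driver genes. Of 43 such genes, among them RICTOR, RPTOR, SMARCC1, KMT2A and CUL3, 37, 42 and 30 had a narrow peak in the separate lists, and 28 (65.1%) had a narrow peak in all of them. A shared segment lay in 10 of them (23.3%), with 16 segments. Their density was 0.309, 1.39 and 0.204 peaks per 10 kb, below that of the driver genes in each list. Their median span was longer, at 91.0 kb. No test was made between these lists.

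The highest reads at driver summits stood below the maxima of the lists without mitochondrial peaks. They were 32, 31 and 21, against 78, 80 and 78, values that the overexpressed SNRPD2 itself reached. A summit of at least 10 reads was found in 18, 16 and 10 driver genes of 46, while 14.2%, 15.9% and 13.0% of protein-coding genes had one. Of these driver genes, 7, 7 and 3 were oncogenes and 11, 9 and 7 were suppressors. As a share of genes, drivers stood 17.5 percentage points above other protein-coding genes on average over the lists (exact sign-flip permutation p = 0.25). By peak, 22.1%, 5.88% and 12.6% of driver peaks reached 10 reads, against 22.5%, 6.86% and 32.7% of all peaks in protein-coding genes. The driver share was thus the lower in each list, slightly in replicates 1 and 2 and clearly in replicate 3. Single-read peaks made up 52.1% of driver peaks in replicate 2, against 65.1% in protein-coding genes. A −log10 q of at least 3 was reached by 5, 12 and 0 driver peaks (2.05%, 1.96% and 0%), against 1.21%, 1.02% and 1.28% of peaks in protein-coding genes.

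Position along the gene was measured from the annotated start (0) to the annotated end (1) for the 42 driver genes with a strand in the tables. Median summit position was 0.687, 0.579 and 0.607 for driver genes, against 0.622, 0.575 and 0.562 for protein-coding genes. The first 10% of the gene held 13.9% ± 3.09 of driver summits and the last 10% 18.1% ± 1.24 (SD, n = 3 lists). In protein-coding genes these were 15.1% ± 3.11 and 18.0% ± 0.932. The mean median position was 0.624 ± 0.0558 in driver genes and 0.586 ± 0.0316 in protein-coding genes. The driver median was the later in 3 of 3 lists and no test of it was made. In oncogenes 12 of 74, 34 of 185 and 11 of 36 summits lay in the first 10% of the gene, against 12 of 157, 50 of 334 and 8 of 79 in suppressors. The oncogene share was the higher in 3 of 3 lists, and no test of it was made. MTOR alone held many of these oncogene summits in replicate 1 and most of them in replicate 3.

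Shared segments lay at a median position of 0.596 in driver genes (n = 24), against 0.541 in protein-coding genes (n = 1415). Of the driver segments, 16.7% lay in the first 10% and 8.33% in the last, against 24.2% and 16.1%. Exons and introns were not used here, so no peak is placed in either.

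**Figure D5:**
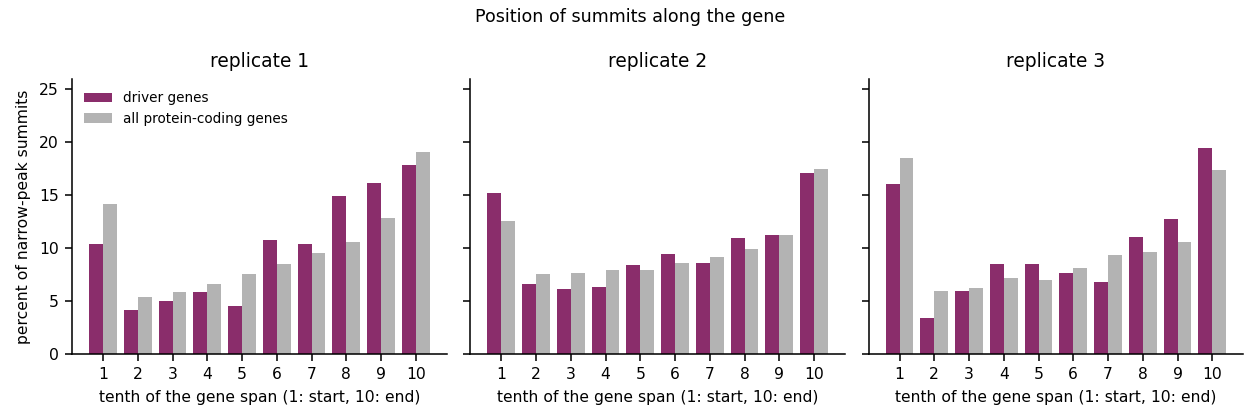
Percent of narrow peak summits in each of 10 equal parts of the gene, from annotated start to annotated end, with a panel per list and a bar each for driver genes and all protein-coding genes. On average over the lists, the last part holds 18.1% of driver summits and 18.0% of those in protein-coding genes.

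Agreement between lists was partial at the level of single peaks. Of the driver peaks of replicate 1, 92 of 244 (37.7%) shared 1 bp or more with a narrow peak of replicate 2, against 35.0% of the peaks in all protein-coding genes. Of those of replicate 2, 97 of 612 (15.8%) overlapped replicate 1, against 8.31%. Overlap with replicate 3 was 18.9% of replicate 1 peaks against 14.5%, and 7.84% of replicate 2 peaks against 4.47%. Of the 119 driver peaks of replicate 3, 39.5% met replicate 1 and 41.2% met replicate 2, against 27.2% and 35.2%. All 6 shares stood above those of protein-coding genes, and no test was made of them. With a reciprocal overlap of 50% the mean over the 6 ordered pairs was 13.7% in place of 26.8%.

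The strongest peak of a gene was taken as the one with the highest deposited −log10 p, which need not have the most reads. Of the 28 driver genes with peaks in every list, 9 had strongest peaks that overlapped in at least 1 pair of lists, and KEAP1 alone in all pairs. The same shares over all protein-coding genes are not given. In CDKN2A and NFE2L2 the strongest peak of replicate 2 by this measure held 1 read, although better-read peaks of both genes shared a segment in all lists. The density of peaks per 10 kb had a Spearman rho over the 46 genes of 0.391 between replicates 1 and 2, 0.533 between 1 and 3 and 0.235 between 2 and 3. For the most reads at a summit the rho was 0.785, 0.337 and 0.467. The points share the libraries and the gene spans, and the values are descriptions only. Of the 17 driver genes without a narrow peak in replicate 3, 10 were met by one of its wide peaks, which the rule leaves out. Its wide peaks met 33 of the 46 driver genes in all. The share over all protein-coding genes is not given, so neither count can be called high or low. Without replicate 3, 29 driver genes (63.0%) had a segment shared by replicates 1 and 2, against 24.6% of protein-coding genes.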

How the data were processed

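RIP-seq peak lists of 3 SNRPD2OE samples were analysed, grouped by the genotype in the labels; 3 Ctrl samples were not analysed here. The tools were, per the submitters' processing notes, MACS2 2.2.9.1, STAR 2.7.10b and cutadapt 4.2, on build GRCh38. Nothing in the sources used here gives the background library, caller options, duplicate handling, strand or immunoprecipitation. The labels' protocols describe rRNA-depleted total RNA. The deposited columns hold peak positions and summit offsets, a score, a fold (ratio over the caller's background), and unadjusted −log10 p-value and −log10 q-value, all the authors' own and per sample.

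Reads at a summit were recovered as the whole number that gives both the deposited fold and p, with 1 read worth 0.599, 1 and 0.254 of pileup in replicates 1, 2 and 3 (tolerance 0.002 on −log10 p). Of distinct pairs, 100%, 100% and 99.9% were solved, and 97.4%, 98.9% and 91.3% by 1 number only. Library depth is unknown, since the lists give no totals, so reads set the precision of each peak. Gene spans and promoter windows came from RefSeq GRCh38.p14, with 46 of 46 members matched. BAP1, CCND1, MYC and VHL had no strand there and enter no position.

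Members, roles and gene lists were chosen with earlier results of these data known. Named by rule were members with a shared segment, the 3 of each role with most peaks per 10 kb and with most reads, and members without peaks; others were named after their values were seen. Overlap needed 1 bp. Differences within lists were tested by exact sign-flip permutation over 3 lists. No comparison between genotypes was made. Alternatives were q, read, width, length, span, role and overlap settings and leaving out replicates; peaks of at least 2 reads were added after seeing the data. Python 3.11.15, numpy 2.4.6, pandas 2.3.3 and scipy 1.17.1 were used. On simulated data 100% of 2943, 2983 and 2808 known read numbers were recovered, as were segments in 100% of 200 genes. The read numbers were simulated with the formula that the recovery inverts, and the segments lay among fewer peaks than the lists hold. The simulation thus checks the code and not the deposited lists.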

Additional observations from a re-analysis of the deposited data

How the results depend on the processing

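Of the recomputed values 0 reversed in sign, and 13 counts or positions moved by over 1.5 times (counts) or 1 SD (positions). The sign-flip tests cannot pass a threshold of 0.05 with 3 lists or fewer, so their side of it shows no stability. With at least 10 reads at the summit, 18, 16 and 10 driver genes had a peak in replicates 1, 2 and 3, 6 had one in every list and 5 had a shared segment (from 42, 44, 29, 28 and 13). The 6 genes are 13.0%, against 7.39% of protein-coding genes. With a −log10 q of at least 3 these were 4, 8, 0, 0 and 0, and the mean median position was 0.703 in place of 0.624; the overlap between lists then had no value. Both settings keep fewer peaks by construction. Segments of at least 100 bp left 4 genes, and lists of equal length 9. The mean differences of driver genes from other protein-coding genes and of oncogenes from suppressors kept their sign under every setting run, but not in every list: p was 0.5 over 3 lists for the driver density at 10 reads or more, and for all 4 differences by the q setting (exact sign-flip permutation). For the shares they were 17.5 and −10.8 points at 10 reads or more, and 6.08 and −4.93 by the q setting. Leaving out 1 replicate gave 15 to 29 genes with a segment shared by the remaining lists and 28 to 42 with a peak in each of them. Neither count can fall when a list is left out. The 13 genes therefore remained by construction, which shows no stability. Over the same settings the difference of driver genes from other protein-coding genes was 25.9 to 39.5 percentage points and 0.301 to 0.532 peaks per 10 kb, and that of oncogenes from suppressors −19.5 to −14.5 points and −0.119 to −0.0883 per 10 kb. With 2 lists the smallest possible p of that test is 0.5. Peaks of at least 2 reads, a setting chosen after seeing the data, left 28 and 13 genes. The peaks over the shared segments had at least 4 reads, so this setting could not remove any of the 13. No paired analysis was possible because the Ctrl samples have no list analysed here. Single reads per peak limit replicate 2, and the 3 lists limit every test.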
